A study of Caenorhabditis elegans with 83 samples.

Results

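The genes slc-17.8, asns-1, stdh-4 and acr-15 lie next to each other on chromosome V of Caenorhabditis elegans, from base 8539727 to base 8555383 of build WBcel235. These 4 genes, of 20449 gene rows counted in SX1263 lines and 20390 in EG6089 lines, are described here by the small RNAs counted on them in all 28 groups. They were picked because small RNAs on them were near 0 in wild type and high in a mutant, so their difference between met-2 mutants and wild type is a description and carries no test.

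Small RNAs were sequenced from whole day 1 adults grown at 20 degrees, in 83 libraries. The SX1263 strain gave 59 of them: met-2(n4256), met-2(n4256);set-25(n5021) and set-25(n5021) mutants and wild type at the generations P0 and F3, with met-2 and wild type also at F15. The EG6089 strain gave the other 24, from met-2(n4256);set-25(n5021) mutants and wild type at P0 and F3. Each combination had anti-GFP lines, whose P0 animals ate bacteria making double-stranded RNA against GFP, and control lines, whose P0 animals ate bacteria with an empty vector. Later generations of both lived on standard OP-50 bacteria. Every group held 3 libraries, except SX1263 wild type fed anti-GFP bacteria at P0 with 2. The labels do not say whether the libraries of a group came from separate cultures, so p-values measure only the spread between these libraries, which may be technical. In whole animals, fewer cells that make a small RNA and less of it per cell cannot be told apart.

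As background, MET-2 puts 1 or 2 methyl groups and SET-25 the third on lysine 9 of histone H3, a mark of silent chromatin. Most small RNAs on worm genes are 22G RNAs, which RNA-dependent RNA polymerases copy from transcripts and which Argonaute proteins carry, many of them in the germline. The counts used here are of small RNA reads, and the level of each gene's messenger RNA was not analysed here.

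The members have unlike roles. asns-1 encodes an asparagine synthetase, the enzyme that makes asparagine from aspartate. stdh-4 belongs to a family named for putative steroid dehydrogenases. acr-15 encodes an alpha-type subunit of nicotinic acetylcholine receptors, the ion channels opened by acetylcholine, and slc-17.8 a member of the SLC17 family of transporters, which in mammals includes the vesicular glutamate transporters.

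The annotation places slc-17.8 on the minus strand, at 8539727 to 8545581, and the other members on the plus strand. asns-1 follows after a gap of 592 bases, at 8546174 to 8548880, so that it and slc-17.8 are transcribed away from each other. stdh-4 lies 408 bases further on, at 8549289 to 8551207, and acr-15 another 1487 bases on, at 8552695 to 8555383. The whole stretch spans 15657 bases, and no member overlaps another. The strand used in counting is not given in the sources used here, so sense and antisense small RNAs cannot be told apart.

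Gene counts per library ran from 3583283 to 18225929 in SX1263 and from 2134929 to 6102965 in EG6089. Levels are given as CPM, a count scaled to a common library size after TMM normalisation of the gene totals. On that scale 3 counts, the limit that a count of 0 allows, came to between 0.183 and 1.06 CPM in an SX1263 library, and in an EG6089 library to between 0.482 and 1.30 CPM. This covers counting error only. The mutated genes were looked at first. Small RNAs on met-2 averaged 97.9 ± 13.98 CPM in met-2 and 88.8 ± 15.4 CPM in met-2;set-25 P0 controls, against 336 ± 29.8 CPM in wild type (SD, n = 3 each). Those on set-25 averaged 174 ± 14.7 CPM in set-25 mutants, against 252 ± 14.2 CPM in wild type at P0 (SD, n = 3 each). They were also lower in met-2 than in wild-type P0 controls (fitted log2 change -0.49 ± 0.097, SE). A lower level on set-25 was therefore not particular to set-25 mutants.

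All 4 genes carried small RNAs in met-2 mutants at P0 and F3, in every one of those 12 libraries, and almost none anywhere else. Summed over the 4 genes, a met-2 P0 or F3 library held 561 to 4073 counts, with a median of 1790. An SX1263 wild-type library held 0 to 8. Across the 65 libraries of genotypes other than met-2, no library had more than 6 counts on slc-17.8, 4 on asns-1, 2 on stdh-4 or 3 on acr-15. The met-2;set-25 and set-25 mutants of the same background were among those 65.

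**Figure D1:**
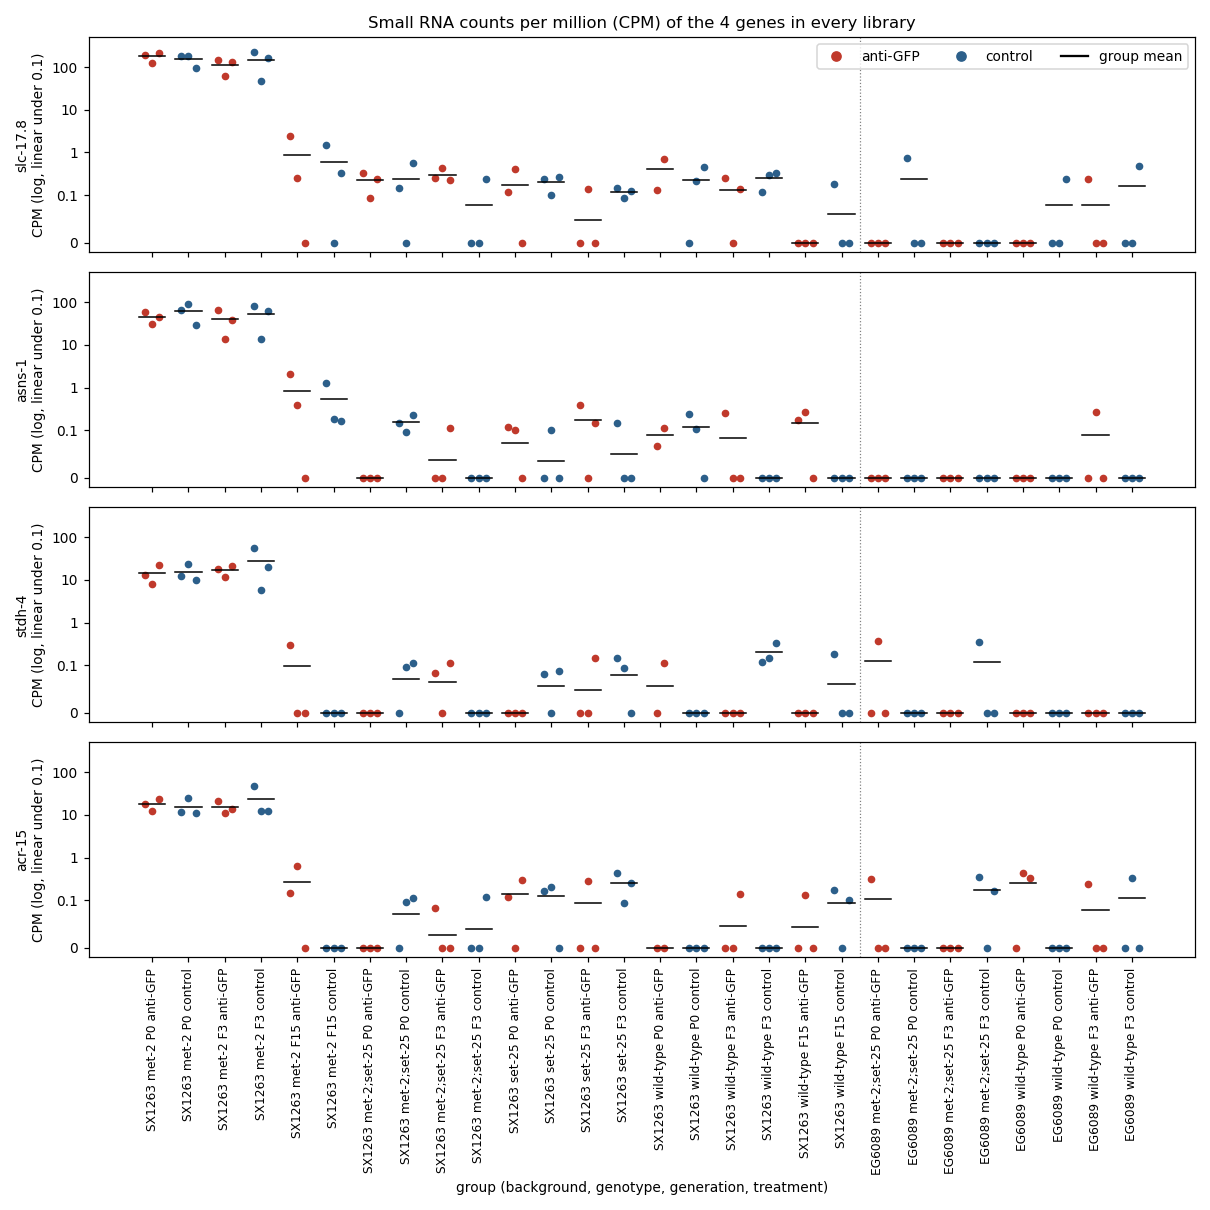
CPM of slc-17.8, asns-1, stdh-4 and acr-15 in each of the 83 libraries, on a log axis that is linear under 0.1, with 1 point per library and a line at the group mean; the dotted line parts SX1263 from EG6089. The 12 met-2 P0 and F3 libraries lie between 5.90 CPM (stdh-4) and 223 CPM (slc-17.8), above every other library of each gene.

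slc-17.8, the transporter gene, had the most counts. At P0 it had 195, 123 and 214 CPM in met-2 anti-GFP libraries, against 183, 184 and 96.7 CPM in met-2 controls. At F3 it had 149, 62.1 and 129 CPM in met-2 anti-GFP libraries, against 223, 46.3 and 162 CPM in met-2 controls. At F15 it had 2.37, 0.258 and 0 CPM in met-2 anti-GFP libraries, against 1.46, 0 and 0.331 CPM in met-2 controls. The P0 and F3 values overlapped between treatments, and each of the 6 F15 libraries lay below all 12 of them.

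asns-1, the asparagine synthetase gene, followed the same course at a lower level. Its P0 values were 57.9, 30.6 and 44.4 CPM in met-2 anti-GFP libraries, against 65.9, 90.9 and 28.7 CPM in met-2 controls. Its F3 values were 66.8, 14.1 and 38.4 CPM in met-2 anti-GFP libraries, against 82.4, 13.9 and 62.7 CPM in met-2 controls. Its F15 values were 2.07, 0.387 and 0 CPM in met-2 anti-GFP libraries, against 1.29, 0.188 and 0.166 CPM in met-2 controls. The treatments overlapped here too, and replicate 2 was the lowest F3 library of either treatment.

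stdh-4, of the steroid dehydrogenase family, had 13.05, 8.06 and 22.9 CPM in met-2 anti-GFP libraries at P0, against 12.03, 23.3 and 9.73 CPM in met-2 controls. At F3 it had 17.55, 11.7 and 20.7 CPM in met-2 anti-GFP libraries, against 56.1, 5.90 and 19.6 CPM in met-2 controls. At F15 it had 0.296 CPM in 1 met-2 anti-GFP library and no count in the other 2, nor in any met-2 control. The F3 controls held both the highest and the lowest of the 12 P0 and F3 values.

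acr-15, the receptor subunit gene, had 17.69, 12.6 and 23.7 CPM in met-2 anti-GFP libraries at P0, against 11.9, 24.3 and 10.9 CPM in met-2 controls. At F3 it had 20.7, 10.8 and 13.9 CPM in met-2 anti-GFP libraries, against 46.6, 12.6 and 12.2 CPM in met-2 controls. At F15 it had 0.148, 0.645 and 0 CPM in met-2 anti-GFP libraries and no count in the 3 met-2 controls. F3 control replicate 1 stood above the other 11 P0 and F3 libraries for acr-15, as it did for stdh-4 and slc-17.8.

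In the other genotypes the levels were at or near the floor. slc-17.8 reached at most 0.572 CPM in met-2;set-25, 0.413 CPM in set-25 and 0.686 CPM in wild type of SX1263. asns-1 reached at most 0.229 CPM in met-2;set-25, 0.382 CPM in set-25 and 0.263 CPM in wild type. In EG6089, asns-1 had no count in any of 12 met-2;set-25 libraries and 1 count over 12 wild-type libraries. stdh-4 reached at most 0.114 CPM in met-2;set-25, 0.147 CPM in set-25 and 0.335 CPM in wild type of SX1263. acr-15 reached at most 0.119 CPM in met-2;set-25, 0.440 CPM in set-25 and 0.179 CPM in wild type. It had 16 counts over 12 set-25 libraries and 4 over 17 SX1263 wild-type libraries. The counts are few, and differences among these groups were not tested.

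Set against wild type, counts summed over the control libraries of a group gave these folds. At P0, slc-17.8 had 5902 counts in met-2 and 6 in wild type, an 888-fold difference with a 95% counting interval of 408 to 2421. asns-1 had 2361 counts in met-2 and 5 in wild type at P0, 426-fold with an interval of 182 to 1314. stdh-4 and acr-15 had no count in wild-type P0 controls, and met-2 was at least 173-fold and at least 180-fold higher, taking 3 counts as the limit for the wild-type group. The intervals cover counting error only.

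Per length, slc-17.8 also stood first. In met-2 P0 anti-GFP libraries it averaged 85.8 CPM per kilobase of exon, against 20.8 for asns-1, 13.7 for stdh-4 and 11.99 for acr-15. In met-2 P0 controls the order was the same, running from 74.6 CPM per kilobase for slc-17.8 to 10.5 for acr-15. In met-2 F3 controls stdh-4, at 25.4, and asns-1, at 24.9 CPM per kilobase, changed places by less than the spread between libraries.

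In met-2 P0 and F3 libraries slc-17.8 always held most of the joint counts of the 4 genes, while the smaller shares varied. Over the 12 met-2 P0 and F3 libraries, slc-17.8 took 63.5 ± 5.30% of them, asns-1 20.5 ± 4.44%, stdh-4 7.75 ± 2.89% and acr-15 8.23 ± 3.22% (mean and SD). The share of slc-17.8 ran from 54.7 to 70.6%, so it held the majority in each library. Its mean share was 60.3 ± 3.58% at F3 and 66.6 ± 5.01% at P0 (SD, n = 6 each), and these ranges overlapped.

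**Figure D2:**
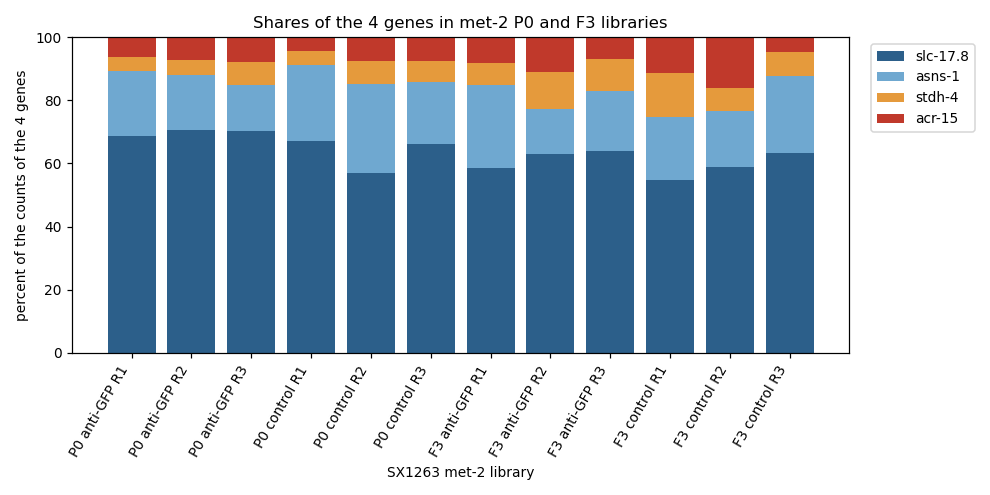
Percent of the joint counts of the 4 genes that fell on each, in the 12 SX1263 met-2 libraries of P0 and F3, as stacked bars with 1 bar per library. slc-17.8 took the largest share in every library, from 54.7 to 70.6%.

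Whether RNAi against GFP altered small RNAs on these genes was asked in met-2 mutants, where they were high enough to test. edgeR's quasi-likelihood F test called 0 of 4 members at P0 and 0 of 4 at F3, at a Benjamini-Hochberg adjusted p under 0.05. None had an unadjusted p under 0.05, and DESeq2 also called 0 of 4. Over all genes tested the same rule called 0.0079% at P0 and 0.131% at F3. The fitted log2 changes ran from -0.50 ± 0.40 (asns-1) to 0.18 ± 0.49 (acr-15) at P0 and from -0.78 ± 0.57 (stdh-4) to -0.42 ± 0.40 (slc-17.8) at F3 (SE). These errors leave room for changes of the same size as the estimates or larger. Without F3 control replicate 1, the F3 changes turned to 0.060 (slc-17.8), 0.33 (stdh-4) and 0.24 (acr-15), and 0 of 4 were called.

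Pooled over P0, F3 and F15, 0 of 4 members were called by edgeR or DESeq2, against 0.425% of all genes. The lowest unadjusted p was 0.0665, for acr-15 with a log2 change of 1.30 ± 0.69. That estimate includes F15, where acr-15 had 6 counts in anti-GFP libraries and none in controls. Pooled over P0 and F3 only, a choice made after the data were seen, the log2 change of acr-15 was -0.22 ± 0.38, and again 0 of 4 members were called, against 0.551% of all genes.

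In the other genotypes, at F15 and in EG6089, no anti-GFP comparison of the members could be tested. At F15 and in EG6089, 0 of 4 members passed the low-count filter, and at P0 and F3 they passed it through the met-2 groups. The counts there were few in both treatments.

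Between P0 and F3 in met-2 controls, 0 of 4 members were called by edgeR, none had an unadjusted p under 0.05, and DESeq2 called 0 of 4. Over all genes 0.23% were called. P0 and F3 animals also differed in food, so food and generation cannot be told apart in this comparison. The log2 changes of F3 over P0 ran from -0.24 ± 0.56 (asns-1) to 0.84 ± 0.59 (stdh-4). In met-2 anti-GFP lines 0 of 4 were called as well, against 0.944% of all genes, with log2 changes from -0.65 ± 0.48 (slc-17.8) to 0.16 ± 0.56 (stdh-4).

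Small RNAs on the 4 members were lower at F15 than at F3 in met-2 controls. slc-17.8 had 11 counts over the F15 controls and 3115 over the F3 controls, 229-fold lower with a counting interval of 128 to 460. asns-1 had 10 counts at F15 and 1148 at F3, 92.9-fold lower (interval 50.3 to 194). stdh-4 and acr-15 had no count in F15 controls, at least 157-fold and at least 137-fold lower than at F3. In met-2 anti-GFP lines slc-17.8 was 122-fold lower at F15, with 18 counts against 2273 at F3, and asns-1 45.2-fold lower, with 17 against 793. Of the F15 counts that were left, replicate 1 held 16 of 18 on slc-17.8 and 14 of 17 on asns-1 in anti-GFP lines, and 9 of 11 and 8 of 10 in controls.

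Small RNAs on the 4 genes were also lower in met-2;set-25 mutants than in met-2 mutants. At P0, slc-17.8 had 7 counts in met-2;set-25 controls and 5902 in met-2 controls, 716-fold lower (interval 347 to 1782). At F3, asns-1 had no count in met-2;set-25 controls and 1148 in met-2 controls, at least 306-fold lower. In anti-GFP lines at P0, asns-1 had no count in met-2;set-25 and 907 in met-2, at least 426-fold lower.

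Both of these contrasts set other libraries against the met-2 P0 and F3 libraries whose high level chose the members, and the members passed the low-count filter through those libraries. They are therefore descriptions, and nothing is read from the number of members that edgeR called lower in them. That number was 4 of 4 for F15 against F3 in controls and in anti-GFP lines, where 10.6% and 6% of all genes were called lower. With the F15 and F3 controls fitted alone it was 2 of 4, slc-17.8 and asns-1. It was 4 of 4 for met-2;set-25 against met-2 in P0 and F3 controls, where 10.3% and 15.6% of all genes were called lower, and in P0 and F3 anti-GFP lines, where 7.64% and 12.7% were. Among P0 controls, where replicate numbers paired the libraries, a replicate block raised the calls over all genes in either direction to 3898, against 2101 without it. The comparisons within anti-GFP lines were added after the data were seen.

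**Figure D3:**
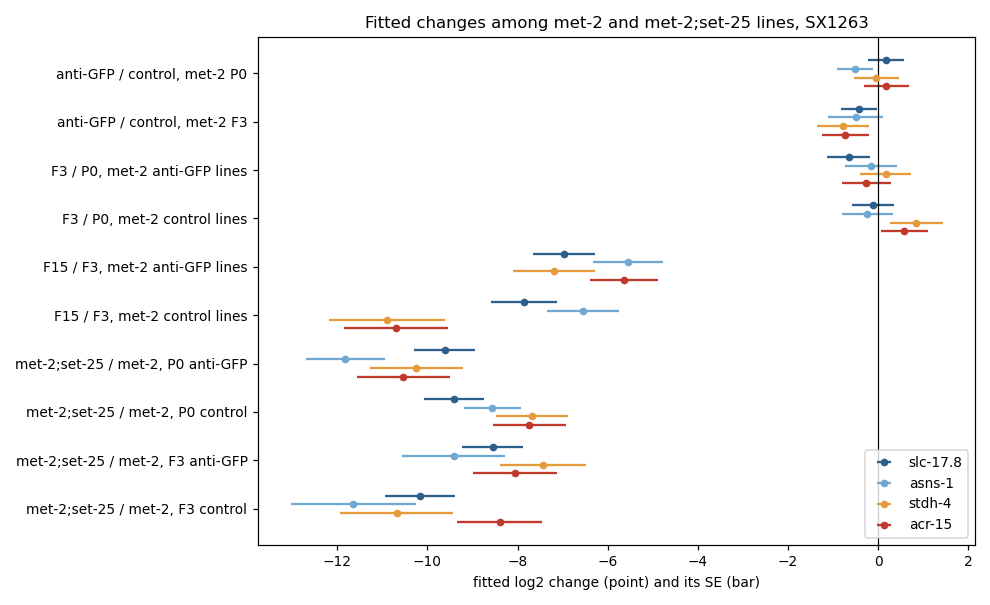
Fitted log2 changes of the 4 genes (points) with their SE (bars) in 10 comparisons among SX1263 met-2 and met-2;set-25 lines. The changes with treatment and between P0 and F3 lie between -0.78 and 0.84, and those of F15 against F3 and of met-2;set-25 against met-2, which the choice of members helps to set, between -5.54 and -11.8, where the fitted values of genes with no count depend on the prior count.

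Summed small RNAs on marker genes of tissues lay apart from wild type for some lists and overlapped it for others. Summed small RNAs on 10 sperm genes ran from 200.4 to 316 CPM in met-2 P0 and F3 libraries and from 51.7 to 177 CPM at F15, against 69.4 to 151 CPM in SX1263 wild type. Those on 8 body muscle genes ran from 50.0 to 450.2 CPM in met-2 P0 and F3 libraries and from 9.2 to 93.2 CPM at F15, against 47.7 to 79.8 CPM in wild type. Those on 8 oocyte and germline genes ran from 1539 to 1950.3 CPM in met-2 P0 and F3 libraries and from 1410.2 to 1723 CPM at F15, against 1804 to 2373 CPM in wild type. Those on 8 intestine genes ran from 30.5 to 207 CPM in met-2 P0 and F3 libraries and from 55.6 to 99.1 CPM at F15, against 14.2 to 46.1 CPM in wild type. Those on 8 neuron genes ran from 191 to 378 CPM in met-2 P0 and F3 libraries and from 109 to 274 CPM at F15, against 200.5 to 356 CPM in wild type. Those on 8 hypodermis genes ran from 0.806 to 68.7 CPM in met-2 P0 and F3 libraries and from 1.04 to 42.2 CPM at F15, against 0.847 to 2.75 CPM in wild type. In met-2;set-25 libraries of SX1263 the sperm list ran from 33.3 to 109.9 CPM, the muscle list from 16.9 to 54.03 CPM and the neuron list from 323 to 692 CPM. There the sperm list lay wholly below the met-2 P0 and F3 libraries, and the muscle and neuron lists overlapped them in part. The oocyte and germline list ran from 1701 to 2156 CPM, the intestine list from 54.7 to 194 CPM and the hypodermis list from 0.438 to 1.60 CPM in met-2;set-25. Every gene of these lists had a count in some met-2 P0 or F3 library. These values are small RNAs on the listed genes and do not measure the amount of a tissue. The part of tissues in the levels of the members was not tested.

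The nearest gene on each side was also higher in met-2 P0 and F3 libraries, and the next one on each side was not. otpl-4, an otopetrin-like gene whose end lies 113 bases before slc-17.8, had 0.595 to 3.32 CPM in met-2 P0 and F3 libraries, against at most 0.295 CPM in wild type. The lowest of these met-2 values is near the limit of 3 counts, which came to 0.234 to 0.806 CPM in those libraries. his-39, the next gene to the left, a histone gene, had at most 0.179 CPM in those met-2 libraries, against at most 0.140 CPM in wild type. acr-16, which encodes another nicotinic acetylcholine receptor subunit and begins 5833 bases after acr-15, had 6.18 to 50.8 CPM in met-2 P0 and F3 libraries, against 1.01 to 3.10 CPM in wild type. F25G6.8, next to acr-16, had 18.4 to 29.2 CPM in those met-2 libraries and 18.97 to 28.7 CPM in wild type, and overlapped. Further out, medians went both ways. F25G6.1 had a median of 374 CPM in met-2 P0 and F3 libraries and 90.4 CPM in wild type, and otpl-6 had 44.5 and 65.5 CPM.

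At F15 the neighbours differed among themselves. otpl-4 had at most 0.444 CPM in met-2 F15 libraries, so that it lay below its met-2 P0 and F3 libraries as the members did. acr-16 averaged 17.15 ± 15.7 CPM in met-2 anti-GFP libraries and 13.9 ± 9.53 CPM in met-2 controls at F15 (SD, n = 3 each), and its met-2 F15 libraries, at 2.98 to 35.3 CPM, overlapped those of P0 and F3. Of the neighbours further out, otpl-6 had 4.38 to 11.7 CPM in met-2 F15 libraries, against 22.3 to 131 CPM in met-2 P0 and F3 libraries and 34.2 to 89.2 CPM in SX1263 wild type. tag-196 had 10.95 to 32.03 CPM in met-2 F15 libraries, against 70.2 to 201 CPM in met-2 P0 and F3 libraries and 28.3 to 74.4 CPM in wild type. Both were chosen after their values were seen. Of the 10 genes on each side, 3 had every met-2 P0 and F3 library above every SX1263 wild-type library: otpl-4, acr-16 and otpl-7, another otopetrin-like gene 15049 bases to the left of slc-17.8. Over all gene rows 3.22% separated in this way. For met-2 F15 libraries the count was also 3 of 20, otpl-7, F25G6.1 and F41E6.8, against 6.36% of all gene rows. otpl-7, which was not named by a rule and was chosen after its values were seen, averaged 43.1 ± 23.9 CPM in met-2 F3 controls and 0.346 ± 0.310 CPM in wild-type F3 controls. At F15 it averaged 2.60 ± 0.743 CPM in met-2 anti-GFP libraries and 34.98 ± 17.65 CPM in met-2 controls (SD, n = 3 each).

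**Figure D4:**
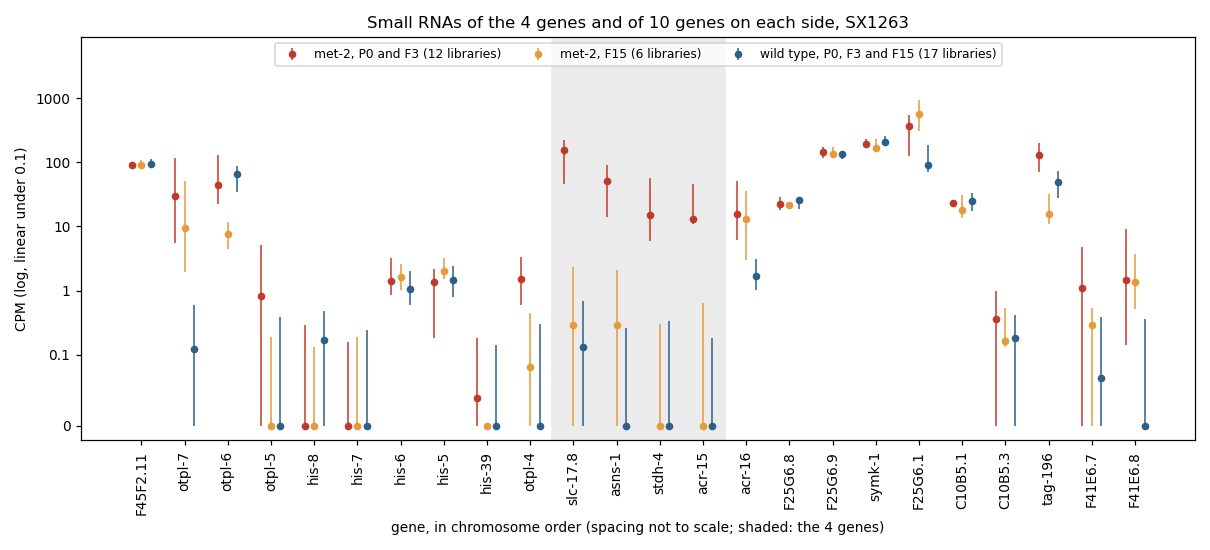
Median CPM (points) and range over libraries (bars), on a log axis that is linear under 0.1, of the 4 genes (shaded) and of 10 genes on each side in chromosome order, for met-2 P0 and F3, met-2 F15 and wild type of SX1263. The 4 shaded genes are high in met-2 P0 and F3 libraries alone, while acr-16 stays at 2.98 to 35.3 CPM at F15.

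The genes most like the members were sought by Pearson's r of log2(CPM + 0.5), over the 59 SX1263 libraries and 9654 genes. They were dop-2 (r = 0.990), a D2-like dopamine receptor gene on chromosome V at 9608556 to 9614940, K08C7.4 on chromosome IV (r = 0.990), chtb-1 on chromosome III (r = 0.986), idpc-6 on chromosome V at 9620150 to 9621036 (r = 0.985) and C01G6.9 on chromosome II (r = 0.980). Compared with asns-1 alone, slc-17.8 ranked first among all other genes, stdh-4 sixth and acr-15 seventh. With Spearman correlation these ranks were 234 for slc-17.8 (0.572), 286 for stdh-4 (0.557) and 306 for acr-15 (0.550). These r are descriptions: the libraries fall into 12 high ones and 47 low ones, and r rests on that split.

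dop-2 had 45.5 to 155 CPM in met-2 P0 and F3 libraries and 0.177 to 1.94 CPM in met-2 F15 libraries, against at most 0.741 CPM in wild type. chtb-1 had 64.01 to 229 CPM in met-2 P0 and F3 libraries and 0.353 to 2.32 CPM at F15, against at most 0.335 CPM in wild type. Like the members, both were near the floor in met-2;set-25, at most 0.458 CPM for dop-2 and 0.491 CPM for chtb-1. With ranks in place of log values, none of the 5 genes was among the top 5, and most libraries of these genes tie at or near 0.

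**Figure D5:**
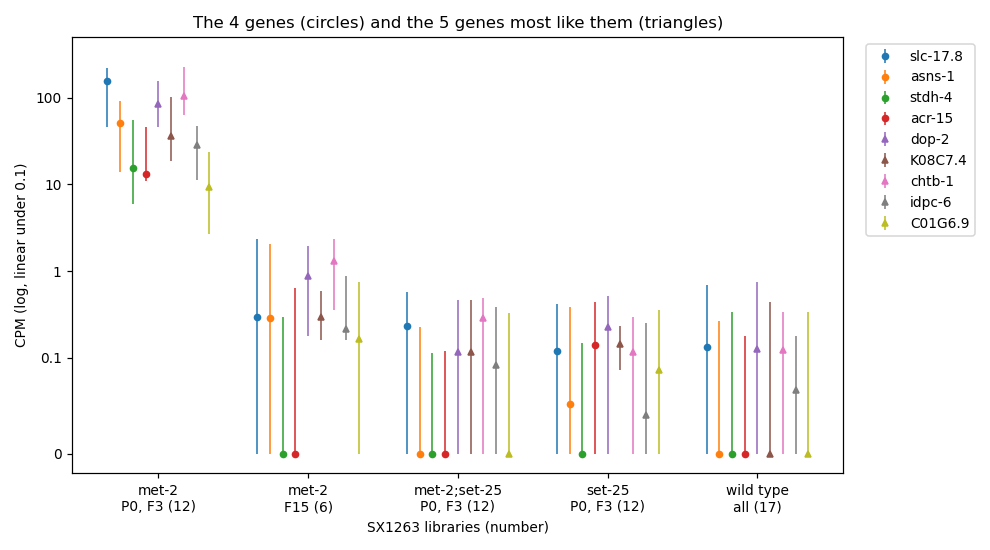
Median CPM (points) and range over libraries (bars), on a log axis that is linear under 0.1, of the 4 genes (circles) and the 5 genes most like them (triangles) by kind of SX1263 library. All 9 genes are high in met-2 P0 and F3 libraries, from 2.65 CPM (C01G6.9) to 229 CPM (chtb-1), and at most 2.37 CPM elsewhere.

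Paralogues of the members did not share their pattern as a group. asns-2, the other asparagine synthetase gene, did not pass the low-count filter, with 0.496 ± 0.092 CPM in met-2 and 0.433 ± 0.093 CPM in wild-type P0 controls (SD, n = 3 each). Of 3 other stdh genes 1 was tested, stdh-1, and it was not called at P0, F3 or F15. Among all genes, met-2 controls were called higher than wild type for 13.55% at P0, 17.86% at F3 and 19.06% at F15, and lower for 9.931% at P0, 10.27% at F3 and 17.43% at F15. Of 8 other slc-17 genes 7 were tested, of which 2 rose at P0, 1 at F3 and 3 at F15, and none fell. At F3 that is not above the share of all genes called higher. slc-17.4 rose at P0, with 21.03 ± 11.02 CPM in met-2 and 4.15 ± 0.334 CPM in wild-type controls (log2 change 2.32 ± 0.33, edgeR adjusted p = 4.7e-05). slc-17.1 rose at F3 and F15 (log2 change 1.39 ± 0.44 and 2.13 ± 0.43, edgeR adjusted p = 0.022 and 0.0033), and slc-17.3 at P0 and F15 (2.09 ± 0.60 and 2.11 ± 0.67, adjusted p = 0.015 and 0.030).

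Of 32 other acetylcholine receptor subunit genes 28 had a row, and 16 were tested at P0 and 13 at F3 and F15. 6 rose and 0 fell at P0, 4 rose and 1 fell at F3, and 6 rose and 3 fell at F15. Over all genes tested, 13.55% were called higher at P0, 17.86% at F3 and 19.06% at F15, and 9.931%, 10.27% and 17.43% lower. The median log2 change of the tested subunit genes was 1.14 at P0, 0.67 at F3 and 1.28 at F15, against -0.01, 0.03 and -0.01 over all genes tested. A gene could pass the filter through the met-2 groups alone, so these numbers of genes called and these medians are descriptions.

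acr-16 rose most at P0 among these subunits (log2 change 3.57 ± 0.59, edgeR adjusted p = 0.00019), and rose also at F3 (2.89 ± 0.65, adjusted p = 0.0025) and F15 (2.75 ± 0.77, adjusted p = 0.018). acr-6 rose at P0, with 31.6 ± 16.4 CPM in met-2 and 3.55 ± 2.06 CPM in wild-type controls (log2 change 3.11 ± 0.54, edgeR adjusted p = 0.00032). acr-11 had the largest fitted change at F15 among these subunits, with 26.8 ± 38.04 CPM in met-2 and 1.04 ± 0.364 CPM in wild-type controls. Its log2 change was 4.69 ± 1.11 (edgeR adjusted p = 0.0089), and its met-2 libraries ran from 3.57 to 70.7 CPM. At that level acr-11 could not pass the low-count filter through the wild-type controls, so nothing is read from its p-value. des-2, a subunit that acts together with DEG-3, rose at F15 with 3.30 ± 1.46 CPM in met-2 and 0.140 ± 0.0386 CPM in wild-type controls (59 counts against 3, edgeR adjusted p = 0.0012). With so few counts des-2 could not pass the low-count filter through the wild-type controls either, so nothing is read from this p-value.

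Of 14 genes for methylation of lysine 9 of histone H3 and nuclear RNAi, all were tested, and 3 fell at P0, 5 at F3 and 7 at F15, with none that rose, where 9.931%, 10.27% and 17.43% of all genes were called lower. These counts include the mutated gene met-2 itself, and set-25, at each generation. nrde-2, a nuclear RNAi factor gene, fell at each generation too, by 0.59 ± 0.16 on the log2 scale at P0 (edgeR adjusted p = 0.014), with 708 ± 45.8 CPM in met-2 and 1053 ± 137 CPM in wild-type controls. hpl-1, a gene for a heterochromatin protein of the HP1 family, fell at F15, with 20.0 ± 7.41 CPM in met-2 and 56.8 ± 23.01 CPM in wild-type controls (log2 change -1.53 ± 0.32, edgeR adjusted p = 0.0049), and so did cec-4, whose protein anchors chromatin with methylated lysine 9 at the nuclear envelope (log2 change -0.60 ± 0.20, edgeR adjusted p = 0.038). The median log2 change of this list was -0.19 at P0, -0.23 at F3 and -0.31 at F15. Over all these lists 11 genes were called at F3, but 6 to 8 when any 1 library was left out, and with the met-2 and wild-type controls fitted alone 7 were called at P0, against 11, 13 at F3, against 11, and 12 at F15, against 19.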

How the data were processed

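Small RNA libraries of 83 samples in 28 groups were analysed from the deposited counts, 1 file per library, which the authors made per gene. HTSeq, Bowtie2, cutadapt, DESeq2 and FastQC are listed, with no version, in the submitters' processing notes, which give ce11 and WBcel235 as builds; strand and read length filters are not given in the sources used here. Reads that HTSeq gave to no gene, 50.8 to 62.0% of an SX1263 library and 29.2 to 42.4% of an EG6089 library, were not used. These percentages are not the same measure: the EG6089 files list 0 unaligned reads, while the SX1263 files list many. The labels name 2 library kits without assigning them to libraries. Rows were matched to the Ensembl 115 annotation of WBcel235; 290 SX1263 and 488 EG6089 rows had no match and were kept.

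Tests used edgeR 4.0.16 under R 4.3.3: the robust quasi-likelihood F test on raw counts with TMM factors, filterByExpr by group (minimum count 10, minimum total 15), all groups of a background and generation together, or all controls of a background for changes between generations (all its libraries for anti-GFP lines and pooled contrasts). A gene was called when its two-sided p, adjusted over all genes tested by Benjamini-Hochberg, was under 0.05. The test of anti-GFP against control in met-2 at F3 was also run on counts simulated from its own fit. That run covers no other comparison, and its outcome is not given here. Levels are CPM, and a fold against a group at 0 uses 3 counts over the group. Replicate numbers were shared between groups; same-numbered libraries deviated together, with correlations over 0.1 in every pair, for met-2 anti-GFP against control at P0 and F3, met-2 F3 against P0, and met-2;set-25 against met-2 at P0.

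Named genes were the members, the 2 nearest genes on each side, the 5 most like the members, and the called genes of each list, at most 4 by size of change, or else its most abundant genes. The members and lists were chosen with earlier results of these data known. Results were recomputed with DESeq2 1.42.0, with RLE scaling, with every gene kept, with replicate number as a block, with the compared groups fitted alone and without each replicate in turn.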

Additional observations from a re-analysis of the deposited data

How the results depend on the processing

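The number of members called, which the choice of members helps to set where it is 4, stayed at 0 of 4 for the anti-GFP comparisons and for F3 against P0 in met-2, and at 4 of 4 for F15 against F3 and for met-2;set-25 against met-2, under RLE scaling, no low-count filter, DESeq2, a replicate block, the added anti-GFP lines and leaving out each replicate. The exception was F15 against F3 fitted to the 2 compared groups only, with 2 of 4. The replicate block changed no call of a member. Listed genes called in met-2 against wild type were 11 at P0, 11 at F3 and 19 at F15. With the 2 compared groups only they were 7 at P0, 13 at F3 and 12 at F15, and without 1 replicate at a time between 9 and 13 (P0), 6 and 8 (F3), and 13 and 18 (F15). With a replicate block they were 15 at P0, 12 at F3 and 19 at F15. Over all genes the block raised the calls at P0 to 4606, against 2972 without it. By the labels these groups share only replicate numbers. At P0 the deviations of their same-numbered libraries had correlations of 0.256, 0.0229 and 0.223 for replicates 1, 2 and 3.

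Uncalled log2 changes of members turned direction when 1 library was left out, and the cause was not tested. Without 1 replicate, anti-GFP against control ran at P0 from -0.071 to 0.38 (slc-17.8), -0.53 to 0.45 (stdh-4) and -0.074 to 0.67 (acr-15). At F3 it ran from -0.85 to 0.060 (slc-17.8), -1.27 to 0.33 (stdh-4) and -1.05 to 0.24 (acr-15). Pooled over P0, F3 and F15 it ran from -0.73 to 0.67 (slc-17.8), -0.76 to 0.39 (asns-1) and -0.27 to 1.06 (stdh-4). F3 against P0 ran from -0.51 to 0.32 (slc-17.8), -0.62 to 0.23 (asns-1), -0.17 to 1.35 (stdh-4) and -0.29 to 1.09 (acr-15). Pooled over P0 and F3 only, the anti-GFP change was -0.073 (slc-17.8), -0.36 (stdh-4) and -0.22 (acr-15), and in anti-GFP lines F3 against P0 was -0.26 for acr-15. Of the 5 genes most like the members, 0 recurred with Spearman correlation and 3 with a pseudocount of 5. With all records, HTSeq counter rows included, as the total, mean CPM in met-2 groups fell to 0.430 to 0.493 times the values given here. Depth sets the limit for the 65 libraries of other genotypes, where the members had 0 to 6 counts each.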

Other observations

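Other genes had levels like those of the members. By limits chosen after the values were seen, 68 genes had a mean of at least 5 CPM in each met-2 P0 and F3 group and at most 1 CPM in every SX1263 group of the other genotypes. They are 68 of the 7749 genes that met the first limit. Chromosome V holds 31 of them, of 1232 genes that met the first limit there, chromosome II 17 of 1444, III 10 of 1576, IV 6 of 1265, I 4 of 1609 and X 0 of 570. Chromosome V holds 45.6% of the 68 genes and 15.9% of the 7749. The 4 members, which were picked for such levels, are among the 31.

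Of the 68 genes, 20 lay in 9 runs of neighbouring gene rows, and the 4 members made the longest run. The members were picked as neighbours with such levels, so nothing is read from their run, which these numbers include. The other runs held 2 genes each, such as emb-9 with chtb-1 on chromosome III and nhr-44 with nhr-219 on chromosome V. At most 1 CPM in both met-2 F15 groups was shown by 19 of the 68, the 4 members among them. By contrast, C50H2.13 on chromosome V averaged 123 CPM in met-2 F15 anti-GFP libraries and 95.3 CPM in met-2 F15 controls, against 39.6 to 82.0 CPM in the met-2 P0 and F3 groups. These counts are descriptions of the libraries, with no test.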
